A study of Homo sapiens with 6 samples.

Results

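The dual-specificity MAP kinase phosphatases are the enzymes DUSP1, DUSP2, DUSP4, DUSP5, DUSP6, DUSP7, DUSP8, DUSP9, DUSP10 and DUSP16. All 10 were found by symbol among the 38900 Ensembl gene IDs of the deposited table, 1 row each. They were measured by polyA RNA sequencing in hTERT RPE1 cells, an established human retinal pigment epithelial line that was immortalised with telomerase. Every culture was first held for 5 days at full confluency to make it quiescent. The control group (DMSO, 3 libraries) then received 0.1% DMSO, and the treated group (CA4, 3 libraries) 100 nM combretastatin A4, in both cases for 6 hours in fresh medium. CA4 binds the colchicine site of tubulin and depolymerizes microtubules. Values listed for the libraries of a group are in the order of replicates 1, 2 and 3. All libraries come from 1 cell line, and the labels do not say whether replicates 1 to 3 were separate cultures, so the p-values measure the spread between these libraries, which may be technical.

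MAP kinases are switched on when a kinase places phosphate on both a threonine and a tyrosine of the activation loop. The dual-specificity phosphatases remove both phosphates, and each carries an amino-terminal docking region that decides which MAP kinases it binds. Many of their genes are themselves transcribed in response to MAP kinase activity, which makes them feedback inhibitors of the ERK, JNK and p38 pathways. They are described here in 3 classes. DUSP1, DUSP2 and DUSP4 are inducible nuclear enzymes that act on more than 1 kind of MAP kinase. DUSP5, DUSP6, DUSP7 and DUSP9 are directed mainly at ERK, DUSP5 in the nucleus and the others in the cytoplasm. DUSP8, DUSP10 and DUSP16 are directed at JNK and p38.

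Recovered depth lay between 19524936 and 22538004 reads per library, and 1 read was worth between 0.935 and 1.12 normalized counts. Of the 10 markers of differentiated retinal pigment epithelium, DCT was listed at 0 in every library, TYR, TYRP1, RLBP1 and LRAT reached at most 5.7 normalized counts, and PMEL, RPE65 and BEST1 lay between 8.41 and 99.7. The transcription factors OTX2 and MITF were well detected, as were the epithelial keratins KRT8 and KRT18. KRT18 had 9244 ± 1035 in DMSO and 12805 ± 1957 under CA4 (SD, n = 3 each, limma adjusted p = 0.0849). DESeq2 called KRT18 and did not call KRT8. OTX2 fell from 533 ± 104 in DMSO to 244 ± 15.5 under CA4 (SD, n = 3 each; limma adjusted p = 0.0158), a call lost without DMSO replicate 2 or 3 or CA4 replicate 1 or 3. MITF had 885 ± 239 and 457 ± 170 (SD, n = 3 each; limma adjusted p = 0.1), and DESeq2 called it as well as OTX2. The part of these markers in the changes of the phosphatases was not tested. The other epithelial markers were low, CDH1 between 0.935 and 32.3 normalized counts and EPCAM between 0 and 4.46. Among 7 blood and endothelial markers CD3E and HBB were at 0 throughout. Their summed level was 948 to 1432 in DMSO and 1309 to 3232 under CA4, carried by PECAM1, CDH5 and VWF and highest in CA4 replicate 3. The summed level of 8 proliferation markers was 5262 to 12189 in DMSO and 3209 to 9712 under CA4, and it was highest in replicate 1 of each group. In bulk RNA, fewer cells of a type and less RNA per cell cannot be told apart.

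The promoters of 4 members are printed because these members include DUSP1, which changed with the smallest p of the family, and the other tested members outside DUSP4 whose libraries separated by treatment, DUSP7 and DUSP10, beside DUSP8, which shares a motif with DUSP1. RefSeq windows (GRCh38.p14) were matched for 8 of the 10 members. Windows for DUSP4 and DUSP5 were not used here. Each line gives the 150 bases before the RefSeq transcription start, 5′ to 3′, all on the minus strand. Capitals mark TGACG, the core of the cyclic AMP response element (CRE), on either strand, and the E-box CACGTG. The positions are chr5:172771196-172771345 for DUSP1, chr11:1572272-1572421 for DUSP8, chr3:52056572-52056721 for DUSP7 and chr1:221742090-221742239 for DUSP10, whose entry further upstream of its 2 is shown.
DUSP1: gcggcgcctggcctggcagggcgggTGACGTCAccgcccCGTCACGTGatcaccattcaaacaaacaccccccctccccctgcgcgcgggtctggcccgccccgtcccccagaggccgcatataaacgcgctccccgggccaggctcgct
DUSP8: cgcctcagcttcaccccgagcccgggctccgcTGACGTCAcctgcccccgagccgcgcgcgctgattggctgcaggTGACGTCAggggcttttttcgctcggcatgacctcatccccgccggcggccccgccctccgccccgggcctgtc
DUSP7: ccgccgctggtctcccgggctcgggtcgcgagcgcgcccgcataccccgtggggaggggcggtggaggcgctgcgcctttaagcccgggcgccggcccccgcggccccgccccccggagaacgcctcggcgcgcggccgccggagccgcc
DUSP10: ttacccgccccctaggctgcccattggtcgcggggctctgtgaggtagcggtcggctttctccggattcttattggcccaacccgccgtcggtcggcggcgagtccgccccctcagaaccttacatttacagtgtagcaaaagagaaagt
The full palindromic CRE, TGACGTCA, was present in 2 of the 8 members with a window, DUSP1 and DUSP8. It occurs in 1.85% of 35116 RefSeq windows of the same length, 300 bases. In DUSP1 it lies from -125 to -118, counting the base before the start as -1, and the E-box lies from -108 to -103, overlapping another TGACG core on the opposite strand. DUSP8 holds the CRE at -118 to -111 and again at -74 to -67. The TGACG core was found in 3 of the 8 members, DUSP1, DUSP8 and the DUSP10 entry not printed, and the E-box in 2, DUSP1 and DUSP2. The core occurs in 24.6% of windows, the E-box in 7.26%, the AP-1 motif TGANTCA in 7.71% and the CArG box bound by SRF in 1.29%. No AP-1 motif or CArG box was found in the windows of the 8 members. Such a match is a description of letters and does not show that a factor binds.

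DUSP1 stood apart from the rest of the family in level. Levels of different genes are compared as normalized counts per 1000 exon bases (GENCODE 29), here called counts per kb. In DMSO the order was DUSP1 at 518 ± 19.3 counts per kb, DUSP7 at 116 ± 22, DUSP16 at 84.2 ± 19.6, DUSP4 at 64.7 ± 6.78, DUSP5 at 61.9 ± 54, DUSP6 at 53.7 ± 6.65 and DUSP10 at 33.7 ± 6.86 (SD, n = 3 each). DUSP8, DUSP2 and DUSP9 followed at 6.04 ± 2.43, 2.78 ± 1.46 and 1.37 ± 1.49 counts per kb (SD, n = 3 each). DUSP1 lay far above all others in each library. DUSP5 spread so widely that its libraries overlapped those of DUSP7, DUSP16, DUSP4, DUSP6 and DUSP10, so its place in the order is not resolved. DUSP4 overlapped both DUSP16 and DUSP6, and DUSP2 overlapped DUSP9. DUSP7 and DUSP16 only just separated, with the lowest DUSP7 library at 98.8 and the highest DUSP16 library at 98.4 counts per kb. So did DUSP16 and DUSP6, with the lowest DUSP16 library at 61.9 and the highest DUSP6 library at 61.3 counts per kb. Among 13115 tested genes with an exon length, DUSP1 lay at the 89.8th percentile of level in DMSO and DUSP7 at the 57.6th, while the other tested members lay below the median.

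**Figure D1:**
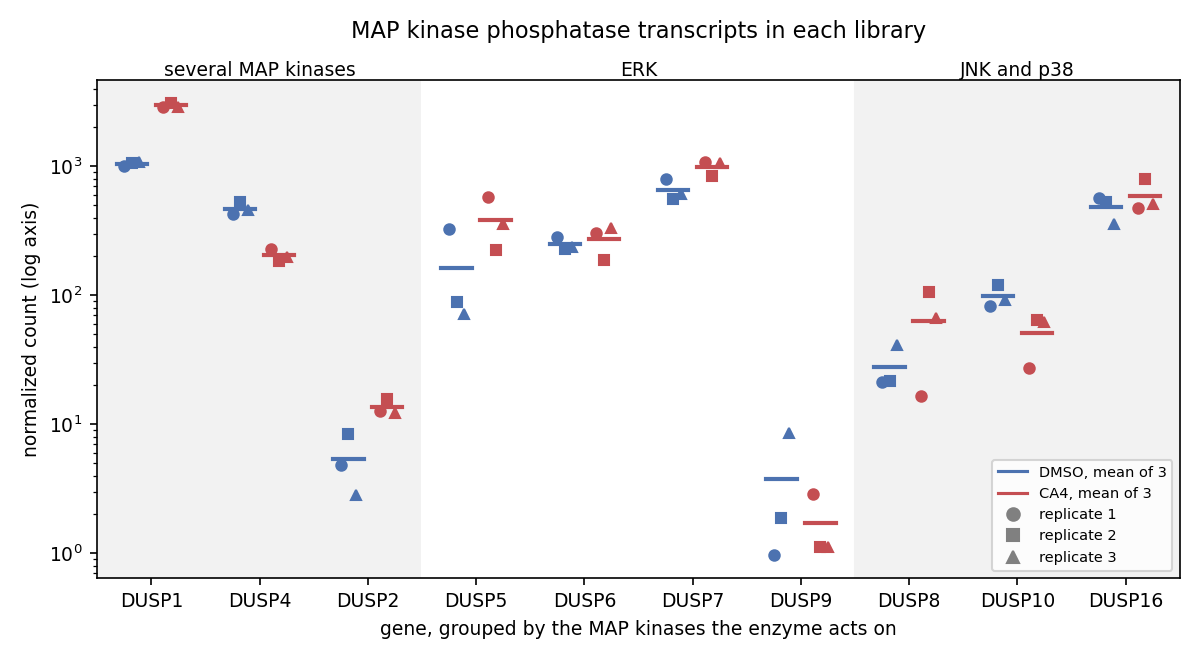
Normalized counts of the 10 phosphatase genes in each library on a log axis, by the MAP kinases the enzymes act on (blue DMSO, red CA4, symbols for replicates 1 to 3, bars for means of 3). DUSP1 moved from about 1046 to 2957 and DUSP4 from 469 to 204 with tight replicates, while DUSP5 and DUSP8 spread widely within each group.

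Treatment moved members of the class acting on several MAP kinases in opposite directions. Transcripts of DUSP1, which acts on p38, JNK and ERK, rose 2.83-fold, and those of DUSP4, its close relative in the nucleus, fell to 0.435 times the DMSO level. These were the only calls among the 8 members abundant enough to be tested (an average of 10 or more normalized counts), 1 higher and 1 lower at a limma adjusted p under 0.05. Among all 13928 tested genes 2.97% were called higher and 1.97% lower, 4.94% in all. These are 413 and 275 genes, and scaling the libraries to the same total gave 279 and 523, with DUSP1 and DUSP4 called as before. The members' share, 2 of 8, rests on few genes. The median log2 fold change of the 8 was 0.45, against -0.0082 for all tested genes.

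DUSP1 (ENSG00000120129, chr5:172768090-172771195, minus strand) had 1001.5, 1061 and 1075 normalized counts under DMSO. Under CA4 it had 2859, 3116 and 2898. The groups are far apart, and no DMSO library comes near the lowest CA4 library. The log2 fold change was 1.50 (SE 0.08, 95% interval 1.31 to 1.68, limma adjusted p = 4.38e-04), the 4th smallest p of the 13928 genes. Fits without 1 library gave 1.46 (without CA4 replicate 2, limma adjusted p = 0.00458) to 1.52 (without CA4 replicate 1, limma adjusted p = 0.00393). The call held in all 6 such fits. The part of the endothelial markers in this change was not tested.

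DUSP4 (ENSG00000120875, chromosome 8, minus strand) had 429.8, 524 and 454 normalized counts under DMSO and 229, 185 and 197 under CA4. All the CA4 libraries lay below all DMSO libraries. The log2 fold change was -1.20 (SE 0.14, 95% interval -1.53 to -0.87, limma adjusted p = 0.00901). Its call was lost without DMSO replicate 3, where the change was -1.22 and the limma adjusted p 0.0506. The ratio of DUSP1 to DUSP4 in counts per kb was 8.38, 7.27 and 8.51 in the DMSO libraries and 44.9, 60.5 and 52.8 in the CA4 libraries.

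DUSP2, the third member that acts on several MAP kinases, is best known from blood cells. It was close to silent and too low to be tested. It had 5, 9 and 3 recovered reads under DMSO and 13, 14 and 11 under CA4. The CA4 libraries all lay above the DMSO libraries. Over 3 libraries that is 17 reads (95% exact Poisson interval 9.9 to 27.2) against 38 (26.9 to 52.2), intervals that cover counting error only. With no filter on low values its log2 fold change was 1.28 (limma adjusted p = 0.257).

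**Figure D2:**
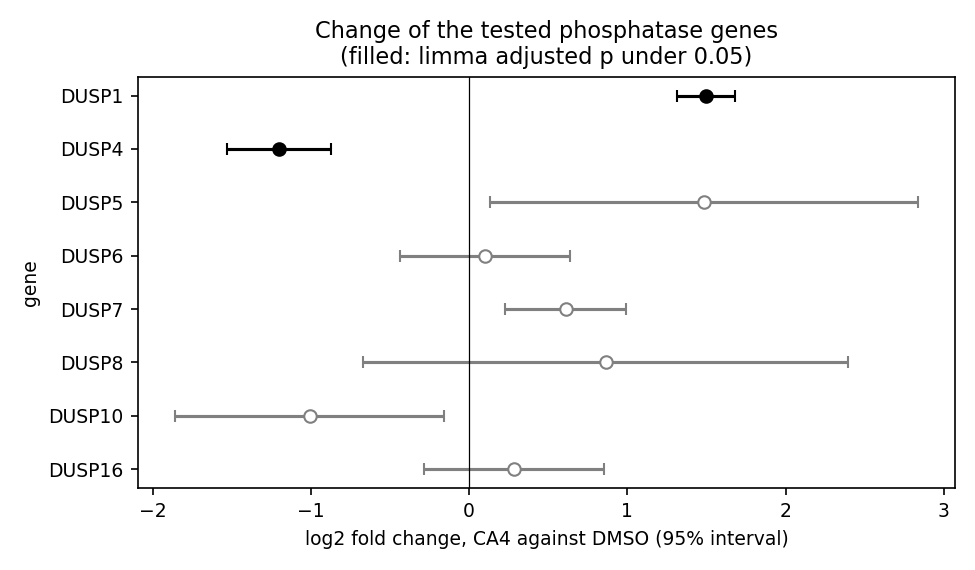
Log2 fold change of the 8 tested members, CA4 against DMSO, with 95% intervals from limma (filled points have an adjusted p under 0.05). DUSP1 at 1.50 and DUSP4 at -1.20 have narrow intervals on opposite sides of 0, while DUSP5, with nearly the same estimate as DUSP1, has an interval from 0.13 to 2.83.

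None of the ERK-directed members passed the limma test (0 of 3 tested, adjusted over all genes), where 4.94% of all tested genes did. In edgeR 0 of the 3 were called and in DESeq2 1, DUSP7, against 4.62% and 12.3% of all genes. All 3 had positive estimates, from 0.10 for DUSP6 to 1.48 for DUSP5. That of DUSP6 turned to -0.061 without CA4 replicate 3. At an unadjusted p under 0.05 there were 2, DUSP5 and DUSP7, and 23% of all tested genes reached that level.

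DUSP5 (ENSG00000138166, chr10:110497838-110511544), the nuclear ERK phosphatase, had 324.5, 88.8 and 72.2 normalized counts under DMSO and 578, 224 and 357 under CA4. Replicate 1 was the highest library of each group, and DMSO replicate 1 lay above CA4 replicate 2, so the groups overlapped. The log2 fold change of 1.48 was as large as that of DUSP1, with an SE of 0.58 and a limma adjusted p of 0.183. Fits without 1 library gave 1.07 (without DMSO replicate 3, limma adjusted p = 0.412) to 2.15 (without DMSO replicate 1, limma adjusted p = 0.0258), and only the latter passed. DMSO replicate 1 also had the highest summed proliferation markers, whose part in the DUSP5 value was not tested.

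DUSP7 (ENSG00000164086, chr3:52048919-52056550), a cytoplasmic ERK phosphatase, had 794, 558 and 609 normalized counts under DMSO. Under CA4 it had 1079.6, 835 and 1068. The CA4 libraries all lay above the DMSO libraries, by a small margin between CA4 replicate 2 and DMSO replicate 1. The log2 fold change was 0.61 (SE 0.16, limma adjusted p = 0.0775). Fits without 1 library gave 0.51 (without DMSO replicate 2, limma adjusted p = 0.219) to 0.76 (without DMSO replicate 1, limma adjusted p = 0.0314), and only the latter crossed the threshold. It was also called in DESeq2 on recovered reads, at 0.61 (adjusted p = 0.0123), where 12.3% of all genes were called.

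DUSP6 (ENSG00000139318, chr12:89347232-89353271), the cytoplasmic ERK phosphatase often used as a readout of ERK activity, had 284, 226 and 236 normalized counts under DMSO and 303, 186 and 331 under CA4. CA4 held the lowest and the highest library. The log2 fold change was 0.10 with a 95% interval from -0.44 to 0.64 (limma adjusted p = 0.843), so changes of either sign within that interval are not excluded. AC024909.2, a GENCODE 29 gene on the opposite strand with no row in the table, covers 40.5% of the DUSP6 exon bases. DUSP9, an ERK phosphatase known from placenta, had 1, 2 and 9 recovered reads under DMSO and 3, 1 and 1 under CA4. It was too low to be tested.

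None of the 3 JNK- and p38-directed members passed in limma, edgeR or DESeq2 (0 in each). Over all genes these tools called 4.94%, 4.62% and 12.3%. Of the 3 members 1 had an unadjusted limma p under 0.05, as did 23% of all tested genes. The 3 estimates pointed both ways. DUSP10 (ENSG00000143507, chr1:221701424-221742176) had 82.1, 120.6 and 92.1 normalized counts under DMSO and 27.1, 64 and 62.4 under CA4. The CA4 libraries all lay below the DMSO libraries. The log2 fold change was -1.01 (SE 0.36, 95% interval -1.86 to -0.16, limma adjusted p = 0.155). Fits without 1 library gave -1.22 (without CA4 replicate 2, limma adjusted p = 0.149) to -0.61 (without CA4 replicate 1, the lowest library, limma adjusted p = 0.282).

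DUSP16 (ENSG00000111266, chr12:12474210-12562383), a JNK-directed enzyme, had 563, 529 and 354 normalized counts under DMSO. Under CA4 it had 472, 791 and 510.5. The groups overlapped, and the log2 fold change was 0.28 (SE 0.24, limma adjusted p = 0.539). Fits without 1 library gave 0.054 (without CA4 replicate 2) to 0.43 (without CA4 replicate 1), and 0.076 without DMSO replicate 3. DUSP8 (ENSG00000184545, chr11:1554044-1571920) had 21.2, 21.5 and 40.8 under DMSO and 16.4, 105 and 66.9 under CA4, so that CA4 held both its lowest and its highest value. Its log2 fold change was 0.86 with an SE of 0.66 (limma adjusted p = 0.482). The estimate was 1.62 without CA4 replicate 1 and 0.32 without CA4 replicate 2 (limma adjusted p = 0.12 and 0.813). It shares 1.1% or less of its 50-base words with each of 3 other gene rows, DUSP8P1, DUSP8P5 and ENSG00000215097, and no other member shares any with another gene in GENCODE 29.

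By sample separation alone, 4 of the 8 tested members had CA4 libraries entirely above (DUSP1, DUSP7) or entirely below (DUSP4, DUSP10) the DMSO libraries. The same was true of 27.7% of all tested genes, 14.3% above and 13.4% below. The members that separated came from all 3 classes. Class medians of log2 fold change were 0.15 for enzymes acting on several MAP kinases, 0.61 for ERK-directed and 0.28 for JNK- and p38-directed ones. These medians cover 2, 3 and 3 tested genes. No difference between classes was tested.

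**Figure D3:**
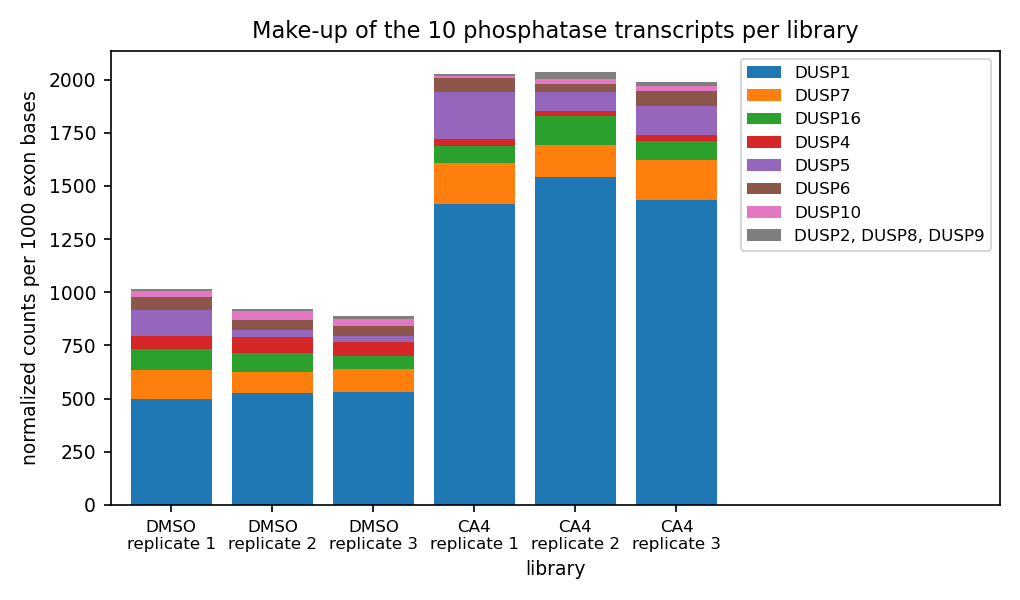
Summed normalized counts per 1000 exon bases of the 10 phosphatase genes in each library, stacked by gene from 0. The total was 888 to 1015 in DMSO and 1991 to 2034 under CA4, and DUSP1 makes up most of the difference.

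Added over the family, phosphatase transcripts came to 1015, 923 and 888 counts per kb under DMSO and to 2028, 2034 and 1991 under CA4. The CA4 totals were close to one another and well above the DMSO totals. DUSP1 took 55.2% ± 5.73 of this total in DMSO and 72.6% ± 3.05 under CA4 (SD, n = 3 each). DUSP4 took 6.9% ± 1.01 and 1.39% ± 0.153, and DUSP10 3.61% ± 0.856 and 0.871% ± 0.358 (SD, n = 3 each). DUSP7 took 12.2% ± 1.57 in DMSO and 8.73% ± 1.27 under CA4 (SD, n = 3 each), although its own level was higher in every CA4 library. A share of a total depends on the other members, and these shares carry no test.

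The members also differ in 3′ UTR features of a kind known to bear on mRNA stability. The AU-rich word ATTTA is part of the elements that decay factors such as ZFP36 recognise, and TTATTTATT is the extended form. In the transcript with the longest coding sequence (GENCODE 29), the extended word occurred 2 times in DUSP1 and 1 time each in DUSP4 and DUSP8, and was absent from the other 7 members. Of 12695 tested genes with such a transcript, 8.23% had it. DUSP1 had 4 ATTTA words in a 3′ UTR of 672 bases, or 5.95 per 1000 bases, against a median of 1.58 over tested genes. DUSP4 had 6 in 3962 bases, or 1.51 per 1000 bases. DUSP5 and DUSP7 had none, as did 32.3% of tested genes. DUSP1 and DUSP4, which changed in opposite directions, both carry the extended word and differ in the density of ATTTA. The stability of mRNA was not measured, and the part of these words in the changes was not tested.

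The 5 genes whose centred log2 values were closest to those of DUSP1 over the 6 libraries, out of 11688 averaging 50 or more normalized counts, were ENSG00000273793, IFFO2, ABTB2, TRIO and BDNF. Their root mean square differences from DUSP1 were 0.127, 0.149, 0.169, 0.179 and 0.181 on the log2 scale. No other member was among them, and DUSP2, DUSP8 and DUSP9 averaged too little to be candidates. BDNF, a neurotrophin, had 804, 786 and 797 normalized counts under DMSO and 1833, 1781 and 1716 under CA4.

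Around the phosphatases, 0 of 10 MAP kinase genes passed in either direction in limma, edgeR or DESeq2. None had an unadjusted limma p under 0.05. Over all genes the shares were 4.94%, 4.62%, 12.3% and 23%, in that order. The MAP kinase with the smallest adjusted p, MAPK9, which encodes a JNK, averaged 893 ± 60.8 normalized counts under DMSO and 763 ± 97.8 under CA4 (SD, n = 3 each; limma adjusted p = 0.302). Of 7 MAP kinase kinases 1 rose and 0 fell, where 2.97% of all tested genes were higher and 1.97% lower. That gene, MAP2K3, which activates p38, had 1034, 709 and 663 normalized counts under DMSO and 2202, 1322 and 2160 under CA4. Its log2 fold change was 1.23 (SE 0.24, limma adjusted p = 0.0336), and the call was lost in 4 of the 6 fits without a library, those without DMSO replicate 2 or 3 or CA4 replicate 1 or 3, with adjusted p-values up to 0.131.

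Among 8 tested scaffolds, activators and effector kinases of JNK and p38, 1 rose and 0 fell, against the same 2.97% and 1.97%. GADD45A, which binds and activates an upstream kinase of both pathways, averaged 1274 ± 187 normalized counts under DMSO and 2746 ± 48.2 under CA4 (SD, n = 3 each). Its log2 fold change was 1.12 (limma adjusted p = 0.0057). The call held in all 6 fits without a library. MAPKAPK2, the kinase downstream of p38, had a log2 fold change of 0.36 and missed the threshold in limma (adjusted p = 0.0687). DESeq2 called both GADD45A and MAPKAPK2, 2 of the 8, where it called 12.3% of all genes.

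Genes of ERK feedback and output went both ways, with 1 of 15 tested higher and 2 lower in limma, where 2.97% of all tested genes were higher and 1.97% lower. In edgeR 3 of the 15 were called and in DESeq2 7, against 4.62% and 12.3% of all genes. An unadjusted limma p under 0.05 was reached by 10 of them and by 23% of all tested genes. ERRFI1, an inhibitor of the EGF receptor, averaged 2278 ± 626 normalized counts under DMSO and 4612 ± 374 under CA4 (SD, n = 3 each), and the log2 fold change was 1.05 (limma adjusted p = 0.0217). Its call was kept only without DMSO replicate 1 among the 6 fits without a library. ETV1, an ETS transcription factor, averaged 362 ± 68.2 under DMSO and 143 ± 8.47 under CA4 (SD, n = 3 each), and the log2 fold change was -1.32 (limma adjusted p = 0.0109), with the call lost without DMSO replicate 3. PHLDA1 averaged 2329 ± 202 under DMSO and 1398 ± 145 under CA4 (SD, n = 3 each), and the log2 fold change was -0.74 (limma adjusted p = 0.0158), with the call lost without DMSO replicate 2 or 3 or CA4 replicate 1. The list had a median log2 fold change of 0.15.

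Of 12 immediate early genes, the rapidly transcribed targets of MAP kinase signalling, 4 rose and 0 fell, with a median log2 fold change of 0.71. NR4A1, an orphan nuclear receptor, had 147, 151 and 84.5 normalized counts under DMSO and 859, 571 and 732 under CA4, and its log2 fold change of 2.52 (limma adjusted p = 0.0057) kept its call in all 6 fits without a library. JUNB and ATF3, which changed by 0.51 and 1.77 on the log2 scale (limma adjusted p = 0.0471 for both), kept it only without DMSO replicate 1. The same held for the remaining call, MYC, at 0.86 (limma adjusted p = 0.0487). In limma 2.97% of all tested genes were higher. In edgeR 2 of the 12 passed and in DESeq2 6, against 4.62% and 12.3% of all genes in either direction.

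**Figure D4:**
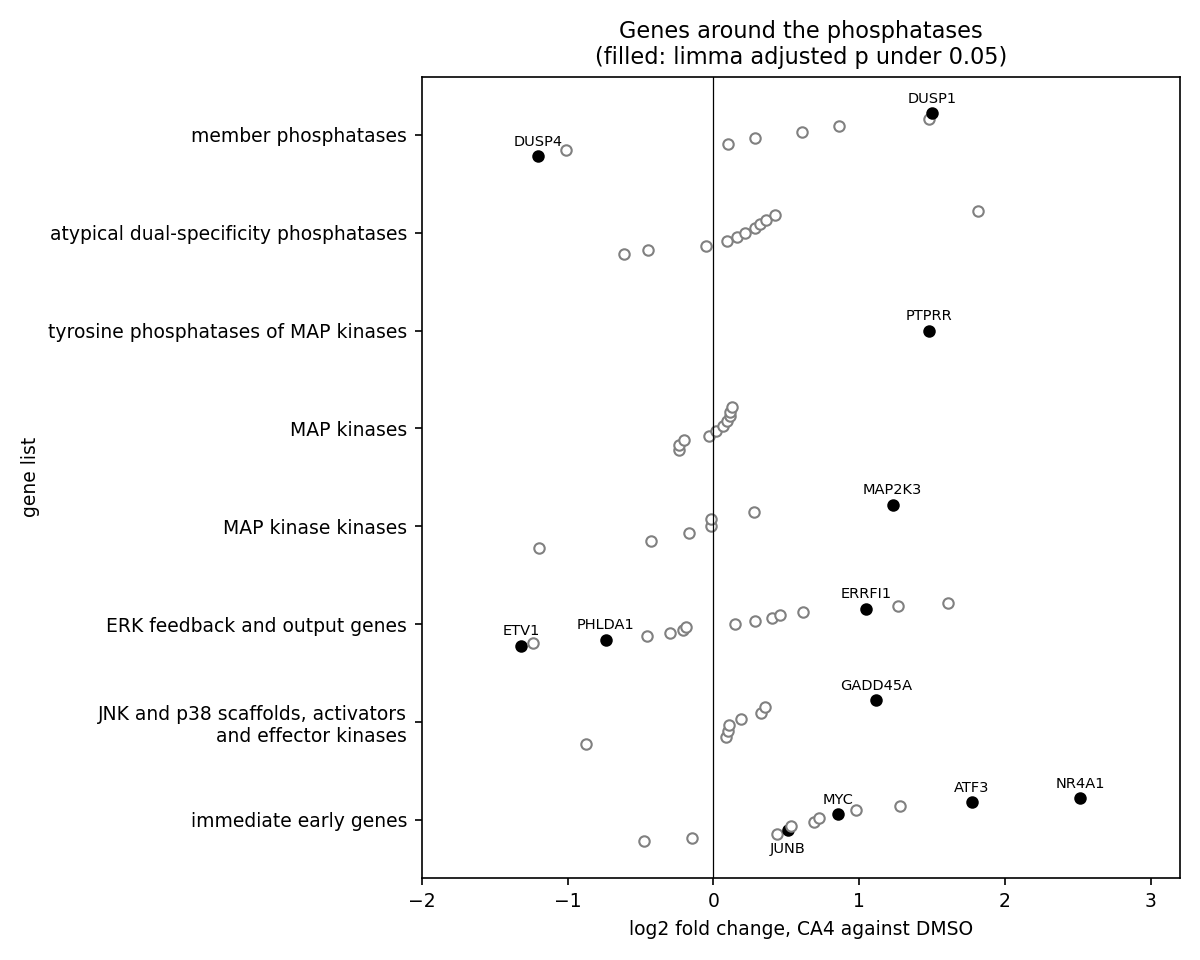
Log2 fold change, CA4 against DMSO, of each tested gene in the phosphatase family and in 7 lists around it (filled and named: limma adjusted p under 0.05). The MAP kinases lie close to 0, and the immediate early genes extend furthest to the right, to 2.52 for NR4A1.

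Other phosphatases were also examined. Of 11 tested atypical dual-specificity phosphatases, which lack the docking region, 0 passed in either direction in limma, edgeR or DESeq2. Over all genes these tools called 4.94%, 4.62% and 12.3%. An unadjusted limma p under 0.05 was reached by 5 of the 11 and by 23% of all tested genes. The smallest limma adjusted p was 0.0874, for DUSP11. DUSP11, an RNA phosphatase, had a log2 fold change of 0.36, with all 3 CA4 libraries above the DMSO libraries. The tyrosine phosphatases that bind MAP kinases had 1 tested gene of 3, and it rose. Of all tested genes 2.97% were called higher and 1.97% lower in limma, and a list of 1 gene cannot be set against these shares. PTPRR, a receptor-type enzyme directed at ERK, had 39.6, 35.5 and 27.5 normalized counts under DMSO and 90.8, 93.1 and 106 under CA4. Its log2 fold change was 1.48 (SE 0.23, limma adjusted p = 0.0185), and leaving out DMSO replicate 2 or 3 or CA4 replicate 1 or 3 ended the call, with adjusted p-values up to 0.0808.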

How the data were processed

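The 6 polyA RNA libraries described above were analysed. The submitters' processing notes name Trim Galore 0.6.6, FastQC 0.12.1, STAR 2.7.9a, Salmon 1.8.0, DESeq2 1.44.0 and GRCh38, without their roles; annotation release and use of strand are not given in the sources used here. The deposited table holds a signal, reads per gene after the authors' division by 1 factor per library, called normalized counts. In every column 100% of values were whole multiples of 1 step (tolerance 0.01), so whole reads, which may be rounded estimates, were recovered. A value of 0 allows up to 3 reads. Symbols came from the supplied name table or GENCODE 29 and covered 35832 IDs.

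The 13928 genes averaging 10 or more normalized counts were tested with limma 3.58.1 (R 4.3.3) on log2(normalized count + 1), with treatment as the only term, a variance trend and no robust option. Two-sided p-values were Benjamini-Hochberg adjusted over all tested genes, threshold 0.05. This scale understates changes of low genes. On simulated data of 13928 genes, 52% of 200 genes changed 2-fold were recovered and 7.96% of calls were false. All 10 members are named, with up to 3 genes per list by adjusted p (MYC, printed to complete a count, was chosen after its values were seen), the 5 genes most like DUSP1 and the cell type markers a sentence needs. Members, lists and tests were chosen with earlier results of these data known. The 18 alternatives varied pseudocount, filter, scaling, variance model, tool (edgeR 4.0.16 and DESeq2 1.42.0 on recovered reads), replicate block and left-out library.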

Additional observations from a re-analysis of the deposited data

How the results depend on the processing

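DUSP1 kept its call in all 18 alternatives, with log2 fold changes from 1.40 to 1.52, and DUSP4 in 17 of 18, from -1.30 to -1.12. Leaving out 1 library gave 1 to 3 members higher and 0 to 1 lower, against 1 and 1; 3 were higher without DMSO replicate 1 (DUSP1, DUSP5 and DUSP7), and 0 lower without DMSO replicate 3. Over all genes these fits gave 50 to 605 higher and 31 to 389 lower, against 413 and 275. DESeq2 called 2 members higher (all genes: 907 higher, 706 lower). Without the variance trend 51 genes were higher and 52 lower, and scaling to the same total gave 279 higher and 523 lower, with a median change over all genes of -0.11 against -0.0082. The estimate for DUSP6 moved with that median, to -0.0025, and stayed positive with the other scalings (0.066 and 0.16). Over the fits without a library it ran from -0.061 (without CA4 replicate 3) to 0.35; the cause was not tested. With the replicate block 3 members were higher (DUSP1, DUSP5, DUSP7) and 2 lower (DUSP4, DUSP10), while 1260 genes (9.05%) were higher and 1137 (8.16%) lower. The libraries were not treated as paired, since deviations of same-numbered libraries correlated at 0.202, 0.159 and 0.0588, not all over 0.1, although each correlated best with its own number. DUSP2 and DUSP9 had 5 to 38 reads per group, and with no filter on low values neither was called (limma adjusted p = 0.257 and 0.695).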

Other observations

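DUSP14, an atypical dual-specificity phosphatase picked out after its values were seen, had 8.69 normalized counts in DMSO replicate 1, while the other DMSO libraries had 349 and 443 and the CA4 libraries, in replicate order, 361, 231 and 785. Its log2 fold change of 1.82 had an SE of 1.36 (limma adjusted p = 0.472).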
